A study of Homo sapiens with 6 samples.

Results

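The mitochondrial ribosomal protein genes were taken from the gene count table as the protein-coding genes whose symbol is MRPL or MRPS followed by a digit. This rule gave 78 genes out of 19672 protein-coding genes and 46427 genes in all, with 49 symbols of the large subunit (MRPL) and 29 of the small subunit (MRPS). RNA was sequenced from HCT116 cells, a human colon carcinoma line, either as parental cells (*ZK3*-WT, 3 cultures) or as homozygous mutants of the zinc finger gene *ZKSCAN3*, made with CRISPR/Cas9 aimed at removing the start codon in its first exon (*ZK3*-KO, 3 cultures). All cultures grew in DMEM with fetal bovine serum. The *ZK3*-KO cells had passed through puromycin selection from single cells, and the number of clones behind the 3 cultures is not given in the sources used here, so that p-values measure the spread between these cultures and not between independently edited lines.

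The mitochondrial ribosome translates the messages of mitochondrial DNA, which encode core subunits of the respiratory chain and of ATP synthase. Its small subunit decodes the message, its large subunit forms the peptide bond next to the inner membrane, and its rRNAs are transcribed from mitochondrial DNA. The ribosomal proteins are encoded in the nucleus, made in the cytosol and imported, and besides relatives of bacterial ribosomal proteins they include many that exist only in mitochondria.

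Between 60827060 and 69739215 reads were counted per library, and values of the 3 libraries of a genotype are given in the order of their replicate numbers throughout. *ZK3*-KO replicate 3 stood apart, since its log2 CPM (read counts divided by the scaled size of the library) correlated at 0.963 and 0.950 with *ZK3*-KO replicates 1 and 2, against 0.985 between those and 0.983 to 0.989 among *ZK3*-WT libraries. Its correlations with *ZK3*-WT replicates 1, 2 and 3 were 0.952, 0.952 and 0.965, so the last was above those with its own genotype. The same correlations were 0.974, 0.965 and 0.965 for *ZK3*-KO replicate 1 and 0.966, 0.959 and 0.956 for *ZK3*-KO replicate 2. Counts of *ZKSCAN3* itself were 28.1, 23.4 and 19.8 CPM in *ZK3*-WT libraries and 25.4, 24.9 and 13.6 CPM in *ZK3*-KO libraries (log2 fold change -0.16, SE 0.27, FDR = 0.797). A count over the whole gene does not test the loss of a start codon, so the genotypes of the libraries were taken from the labels. The paper reports that the mutant lines were identified by sequencing the genomic DNA of each clone. It also shows a Western blot for the ZKSCAN3 and MAD2L2 proteins in mutant and parental cells. The epithelial markers *EPCAM*, *KRT8*, *KRT18* and *CDH1* were present in every library, with *EPCAM* between 218 and 344 CPM, whereas the leukocyte marker *PTPRC* had no read and the endothelial marker *PECAM1* reached at most 0.162 CPM. The fibroblast collagen *COL1A1* was at 32.2 to 98.8 CPM, highest in *ZK3*-KO replicate 3, and its part in the results was not tested.

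To ask whether loss of ZKSCAN3 went with a different level of these genes, all 18366 genes that passed the filter on low counts were tested with edgeR's quasi-likelihood test on counts scaled by TMM (a scaling that trims extreme genes). The FDR is the Benjamini-Hochberg adjusted p over all of them. All 78 mitochondrial ribosomal protein genes passed the filter, with between 759 and 12069 reads per gene and library. The estimate was higher in *ZK3*-KO cells for 68 of 78 (87.2%), against 51.7% of all tested genes, and the median log2 fold change was 0.29, against 0.02 for all tested genes. The middle part of the members, from the lower to the upper quartile, lay between 0.17 and 0.41. Of the single genes, 1 passed an FDR of 0.05, *MRPS28*, which rose. This is 1.28% of the members, where 0.817% of all tested genes were called up, so the share called was near the background. No member was called down, against 1.23% of all tested genes. At an unadjusted p under 0.05, 27 members were higher and 1 was lower, against 8.89% and 9.46% of all tested genes. DESeq2 called 5 members up and 1 down, against 3.87% and 4.33%. In bulk RNA, more RNA per cell and more cells with a given level cannot be told apart.

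Without *ZK3*-KO replicate 3, the test called 14 members up (17.9%), against 7.41% of 18872 genes tested, and 1 down, *MRPL24* (1.28%), against 7.73%. The median log2 fold change of the members was then 0.33. With the replicate number as a block no member was called, and the median was 0.29. The direction of the bulk of the members was thus the same with and without the library that stood apart, while the number of single genes past the threshold differed.

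**Figure D1:**
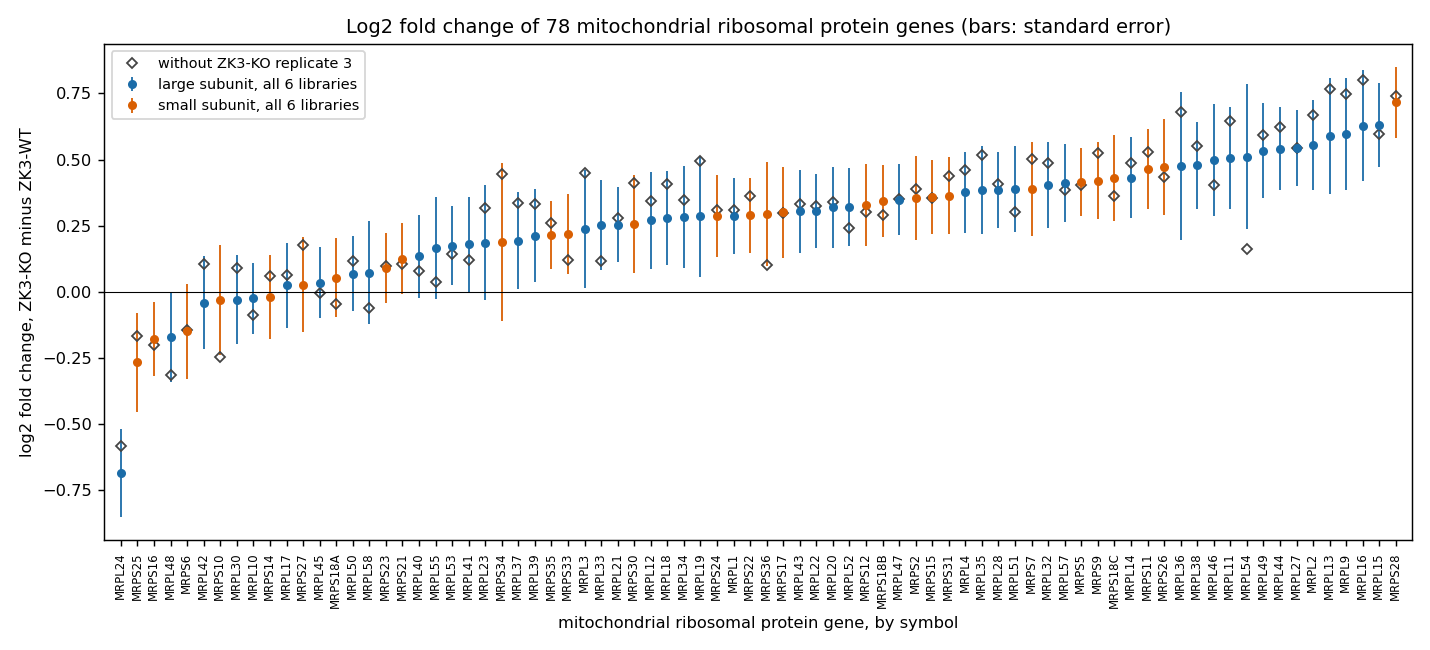
Log2 fold change (vertical axis, *ZK3*-KO minus *ZK3*-WT) of the 78 genes in order of the estimate, with bars for the standard error, blue for the large subunit, orange for the small subunit and open diamonds for the fit without *ZK3*-KO replicate 3. The estimates run from -0.69 for *MRPL24* to 0.72 for *MRPS28*, and 68 lie above 0.

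The libraries were then taken singly, each as the median over the 78 genes of the log2 CPM minus the *ZK3*-WT mean. This median was 0.02, -0.06 and 0.04 in *ZK3*-WT libraries and 0.20, 0.44 and 0.25 in *ZK3*-KO libraries. Every *ZK3*-KO library was therefore above every *ZK3*-WT library, with replicate 2 the highest, while the median of all tested genes in *ZK3*-KO libraries was 0.00, -0.03 and 0.01. Above the *ZK3*-WT mean were 61, 73 and 60 of the 78 genes in *ZK3*-KO libraries. Among the *ZK3*-KO libraries, replicate 2 held the highest value for 57 genes, replicate 3 for 21 and replicate 1 for 0. The lowest value was in replicate 1 for 39 genes and in replicate 3 for 34.

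The size of the difference in *ZK3*-KO replicate 3 depended on the scale. TPM values (counts divided by transcript length and brought to about the same sum in each library) gave member medians of 0.19, 0.42 and -0.09 in *ZK3*-KO libraries, so replicate 3 fell on the other side of the *ZK3*-WT mean. On that scale the median of all tested genes was itself -0.21 in replicate 3, and relative to it the members were at 0.21, 0.45 and 0.12. With CPM by library totals alone, the members relative to all tested genes were at 0.19, 0.44 and 0.18. The members were thus above the median gene of the same library on all 3 scales, and below the *ZK3*-WT mean in replicate 3 on the TPM scale alone.

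**Figure D2:**
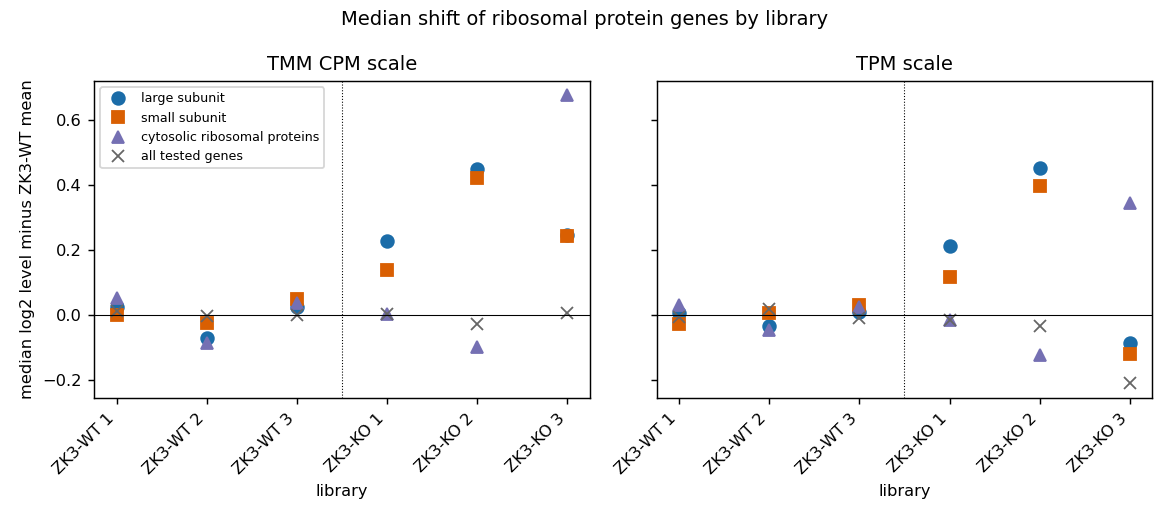
Median log2 level minus the *ZK3*-WT mean (vertical axis) in each library (horizontal axis), on the TMM CPM scale (left) and the TPM scale (right), for genes of the large subunit, the small subunit, the cytosolic ribosome and all tested genes. Both mitochondrial subunits are above all *ZK3*-WT libraries in the 3 *ZK3*-KO libraries on the left, but in *ZK3*-KO replicate 3 they are below 0 on the right, where all tested genes are at -0.21.

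Counted gene by gene, the 3 *ZK3*-KO values were all above the 3 *ZK3*-WT values for 37 of 78 members (47.4%), where 12.7% of all tested genes had groups that did not overlap in this direction. Groups did not overlap in the opposite direction for 1 member (1.28%), *MRPL24*, against 13.8% of all tested genes, and 40 members overlapped. Between libraries of the same replicate number, 62, 72 and 60 members were higher in *ZK3*-KO cells for numbers 1, 2 and 3, with median log2 differences of 0.15, 0.51 and 0.20. In all 3 of these pairs 51 members were higher and 3 were lower, against 22.7% and 24.7% of all tested genes.

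The large and the small subunit were close to each other. The median log2 fold change was 0.30 over the 49 genes of the large subunit and 0.29 over the 29 genes of the small subunit, with 44 and 24 estimates above 0. Groups did not overlap upward for 22 (44.9%) and 15 (51.7%) of them, against the 12.7% given for all tested genes. When *MRPS30* and *MRPS18A*, whose proteins sit in the large subunit, were moved there and *MRPS36* was left out, both medians were 0.29. By library, the large minus the small median was 0.03, -0.05 and -0.02 in *ZK3*-WT libraries and 0.09, 0.03 and 0.00 in *ZK3*-KO libraries. These ranges overlapped, and the difference between the subunits in the fit was smaller than the SD between replicates of 0.0411. The summed TPM of the large subunit divided by that of the small subunit was 1.87, 1.78 and 1.84 in *ZK3*-WT libraries and 1.94, 1.89 and 1.89 in *ZK3*-KO libraries, so this ratio did not overlap between the genotypes, although it differed by little.

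The nearest comparison is the cytosolic ribosome. Of its 79 genes, 76 had estimates above 0 with a median log2 fold change of 0.24, none was called by edgeR or DESeq2 and 4 were higher at an unadjusted p under 0.05, fewer than the background of 8.89% would give for 79 genes. By library their median was 0.00, -0.10 and 0.68 in *ZK3*-KO libraries on the TMM CPM scale. Without replicate 3 the median log2 fold change was -0.04, whereas that of the mitochondrial ribosomal protein genes was 0.33. On this scale the cytosolic genes were thus well above the *ZK3*-WT libraries in 1 *ZK3*-KO library, and the mitochondrial genes in 3. The groups of 11 cytosolic genes (13.9%) did not overlap upward, near the 12.7% of all tested genes.

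Among members of the small subunit, *MRPS28* (NCBI Gene 28957, GRCh37 chr8:80830952-80942524, minus strand) had the largest estimate. It encodes a protein of the small subunit that is related to a bacterial ribosomal protein. Its CPM were 23.5, 21.1 and 21.1 in *ZK3*-WT libraries and 35.3, 37.6 and 35.1 in *ZK3*-KO libraries. The *ZK3*-KO libraries were close to each other and far above the highest *ZK3*-WT library. The log2 fold change was 0.72 (SE 0.14, FDR = 0.0480, edgeR), the FDR was 0.0603 with the replicate block and 0.0107 without *ZK3*-KO replicate 3. Of 14 alternatives, 3 kept it past the threshold. An exon of *MRPS28* overlaps another annotated protein-coding gene on the same strand, so reads there cannot be told apart.

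*MRPL15*, a protein of the bacterial type in the large subunit, had 31.7, 35.7 and 39.6 CPM in *ZK3*-WT libraries and 47.8, 59.7 and 58.2 CPM in *ZK3*-KO libraries (log2 fold change 0.63, SE 0.16, FDR = 0.0993). *MRPL13*, of the same kind, had 47.8, 34.8 and 36.0 CPM in *ZK3*-WT libraries and 63.4, 70.8 and 44.4 CPM in *ZK3*-KO libraries (0.59, SE 0.22, FDR = 0.218). The groups of *MRPL15* did not overlap, while *MRPL13* in *ZK3*-KO replicate 3 lay within the *ZK3*-WT range, and exons of *MRPL13* overlap *MTBP* on the opposite strand. Both genes and *MRPS28* are the 3 members on chromosome 8, where the median log2 fold change of all 516 tested genes with a known position was 0.03.

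Further members of the large subunit with high estimates were *MRPL16*, *MRPL9*, *MRPL2* and *MRPL44*. *MRPL16* had 30.3, 25.4 and 27.6 CPM in *ZK3*-WT libraries and 41.5, 54.5 and 32.6 CPM in *ZK3*-KO libraries (log2 fold change 0.63, SE 0.21, FDR = 0.179). *MRPL9*, a protein whose bacterial relative reaches out from the ribosome surface, had 36.9, 25.6 and 27.1 CPM and 47.2, 52.4 and 35.7 CPM in the same order (0.60, SE 0.21, FDR = 0.201). The groups of *MRPL16* did not overlap and those of *MRPL9* did, and in both genes replicate 3 was the lowest *ZK3*-KO library. *MRPL2*, which lies close to the site of peptide bond formation, had 27.5, 21.9 and 26.6 CPM in *ZK3*-WT libraries and 38.7, 41.5 and 31.5 CPM in *ZK3*-KO libraries (0.55, SE 0.17, FDR = 0.156). *MRPL44*, specific to mitochondria and mutated in an inherited cardiomyopathy, had 43.9, 35.9 and 35.2 CPM in *ZK3*-WT libraries and 56.4, 61.0 and 49.9 CPM in *ZK3*-KO libraries (0.54, SE 0.16, FDR = 0.136). Neither of these overlapped between genotypes. Exons of *MRPL9* and *MRPL2* overlap *OAZ3* and *KLC4* on the opposite strand, and each also overlaps another annotated gene on its own strand (a lncRNA for *MRPL9*, a protein-coding gene for *MRPL2*), whose reads cannot be told apart. The kit marks strand but the strand setting of the counting is not given in the sources used here.

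Without *ZK3*-KO replicate 3 the 14 members called up were *MRPS28*, *MRPL16*, *MRPL13*, *MRPL2*, *MRPL44*, *MRPL9*, *MRPL15* and *MRPS11* together with *MRPL11*, *MRPL27*, *MRPL35*, *MRPL38*, *MRPL49* and *MRPS9*. Their log2 fold changes in that fit ran from 0.52 for *MRPL35* to 0.80 for *MRPL16*. Of these, 11 belong to the large subunit and 3 to the small subunit. For example, *MRPS9* had 45.3, 45.4 and 45.3 CPM in *ZK3*-WT libraries and 61.8, 67.9 and 52.1 CPM in *ZK3*-KO libraries. Its *ZK3*-WT values were almost equal, all *ZK3*-KO values were higher, and replicate 3 was the lowest of them. Since the 14 genes were called without replicate 3, a low value there is not a separate result. In *MRPL15*, *MRPL27* and *MRPL49*, replicate 1 was the lowest *ZK3*-KO library.

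**Figure D3:**
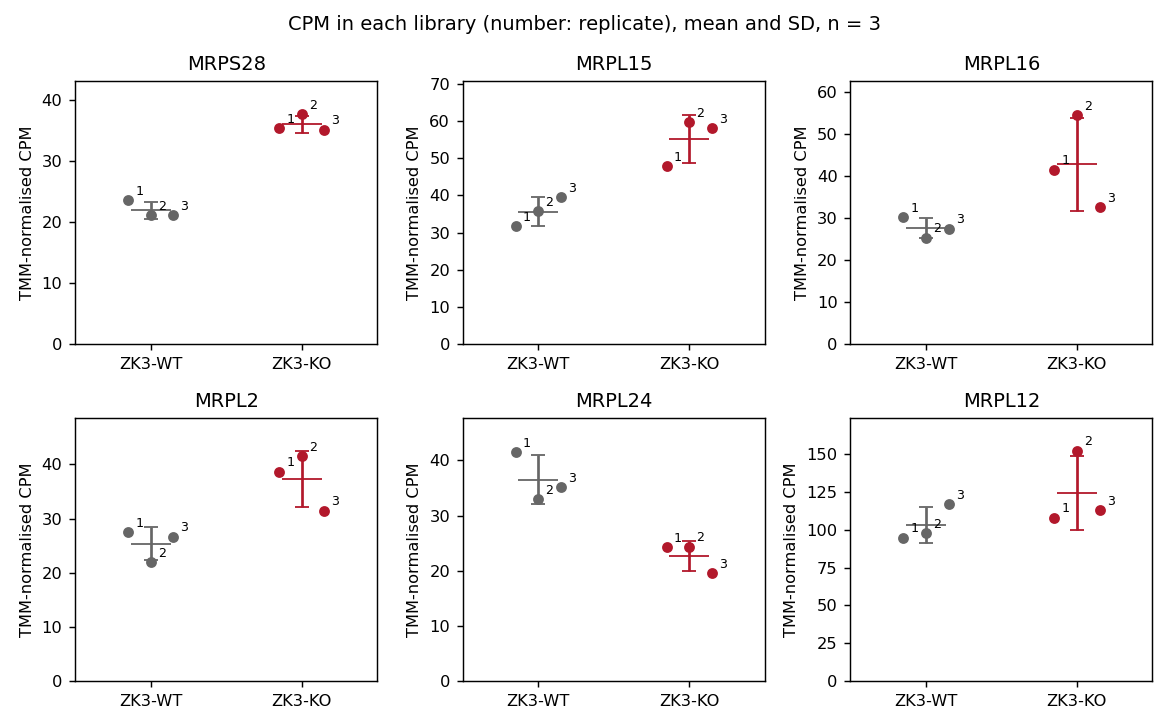
TMM-normalised CPM (vertical axis, from 0) of 6 genes in each library, numbered by replicate, with the mean and SD of the 3 libraries of each genotype. The *ZK3*-WT and *ZK3*-KO libraries of *MRPS28*, *MRPL15*, *MRPL16* and *MRPL2* do not overlap upward, those of *MRPL24* do not overlap downward, and those of *MRPL12* overlap.

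*MRPL24* (NCBI Gene 79590, GRCh37 chr1:156707095-156711382, minus strand) had the lowest estimate of all members. It encodes a protein of the large subunit whose bacterial relative binds early in assembly, close to the mouth of the exit tunnel. Its CPM were 41.5, 32.9 and 35.2 in *ZK3*-WT libraries and 24.2, 24.4 and 19.5 in *ZK3*-KO libraries. All *ZK3*-KO libraries were below the lowest *ZK3*-WT library. The log2 fold change was -0.69 (SE 0.17, FDR = 0.0916, edgeR), and the gene was called without *ZK3*-KO replicate 3 (-0.58, FDR = 0.0330) and with DESeq2 (FDR = 0.00874). Among the 8 members on chromosome 1, 6 had estimates above 0.

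The other 4 of the 5 lowest estimates were small. *MRPS25*, specific to mitochondria, had 72.9, 94.9 and 89.0 CPM in *ZK3*-WT libraries and 64.8, 87.3 and 61.5 CPM in *ZK3*-KO libraries (log2 fold change -0.27, SE 0.19). *MRPS16*, a protein of the bacterial type whose loss causes a respiratory chain disease, had 85.5, 95.1 and 101 CPM and 76.3, 86.4 and 86.4 CPM (-0.18, SE 0.14). Both overlapped between genotypes. *MRPL48* had an estimate of -0.17 (SE 0.17) and *MRPS6* of -0.15 (SE 0.18), and both overlapped as well. The FDR of these 4 genes was between 0.499 and 0.710. Exons of *MRPS6* overlap *SLC5A3* on the same strand, and *MRPS6* and *MRPL39* (0.21, SE 0.18) are the members on chromosome 21, where the median log2 fold change of the 141 tested genes was -0.39.

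Members with particular places in or outside the ribosome gave the following values. *MRPL10* and *MRPL12* form the stalk, which recruits translation factors. *MRPL10* had 86.2, 81.4 and 88.6 CPM in *ZK3*-WT libraries and 82.0, 78.03 and 91.8 CPM in *ZK3*-KO libraries (log2 fold change -0.03, SE 0.13), and *MRPL12* had 94.8, 98.0 and 117 CPM and 108, 153 and 113 CPM (0.27, SE 0.18). Both overlapped between genotypes, and the estimate of *MRPL10* was above 0 when either *ZK3*-WT replicate 3 or *ZK3*-KO replicate 2 was left out. The 3 paralogs *MRPS18A*, *MRPS18B* and *MRPS18C* differed, with log2 fold changes of 0.05 (SE 0.15), 0.34 (SE 0.14) and 0.43 (SE 0.16). The groups of *MRPS18B* and *MRPS18C*, whose proteins sit in the small subunit, did not overlap, while those of *MRPS18A*, whose protein sits in the large subunit, overlapped, and its estimate was below 0 on the TPM scale, with library totals alone and without *ZK3*-KO replicate 3. None of the 3 was called.

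*MRPS30*, which also sits in the large subunit, had 52.9, 50.8 and 51.4 CPM in *ZK3*-WT libraries and 60.4, 76.6 and 48.3 CPM in *ZK3*-KO libraries (log2 fold change 0.26, SE 0.19). *MRPS36*, now known as a subunit of the 2-oxoglutarate dehydrogenase complex and not of the ribosome, had 16.3, 13.8 and 16.0 CPM and 16.6, 16.3 and 23.7 CPM (0.29, SE 0.20). Here *ZK3*-KO replicate 3 was the lowest of all 6 libraries for *MRPS30* and the highest for *MRPS36*. *MRPS22*, mutated in a mitochondrial cardiomyopathy, had 56.2, 53.2 and 53.5 CPM and 64.1, 74.99 and 59.98 CPM (0.29, SE 0.14, FDR = 0.332), with groups that did not overlap. *MRPL3*, a protein of the catalytic core, had 117, 114 and 114 CPM and 138, 174 and 94.5 CPM (0.24, SE 0.22, FDR = 0.619), again with replicate 3 the lowest of all libraries. *MRPL52* is the one member on chromosome 14, where the median log2 fold change of the 504 tested genes was 0.51, and it had 30.1, 26.3 and 29.0 CPM and 32.3, 34.8 and 39.7 CPM (0.32, SE 0.15, FDR = 0.302), with groups that did not overlap. The part of chromosome-wide differences in the values of these genes was not tested.

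Levels were compared between genes per transcript length, as mean TPM of *ZK3*-WT libraries. They ran from 11.4 to 216 TPM, a 19.0-fold range, with a median of 54.6 TPM for the large and 66.3 TPM for the small subunit. The highest level was that of *MRPL12* with 216 ± 24.1 TPM (SD, n = 3) in *ZK3*-WT and 242 ± 65.8 TPM in *ZK3*-KO cells. *MRPL51* followed with 144 ± 17.9 and 173 ± 4.87 TPM, and *MRPL3* with 142 ± 2.61 and 158 ± 60.5 TPM. The levels of *MRPL51* and *MRPL3* in *ZK3*-WT cells differed by less than the SD of *MRPL51*. The lowest levels were those of *MRPS11* with 11.4 ± 0.537 and 14.5 ± 3.17 TPM, *MRPS33* with 11.9 ± 0.0774 and 12.6 ± 0.468 TPM, and *MRPL42* with 14.8 ± 1.44 and 13.4 ± 3.86 TPM. Their log2 fold changes in counts were 0.46 (SE 0.15, FDR = 0.175), 0.22 (SE 0.15) and -0.04 (SE 0.18). TPM depends on the transcript length used for a gene, and *MRPL42* had at least 5195 reads in every library beside its low TPM.

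**Figure D4:**
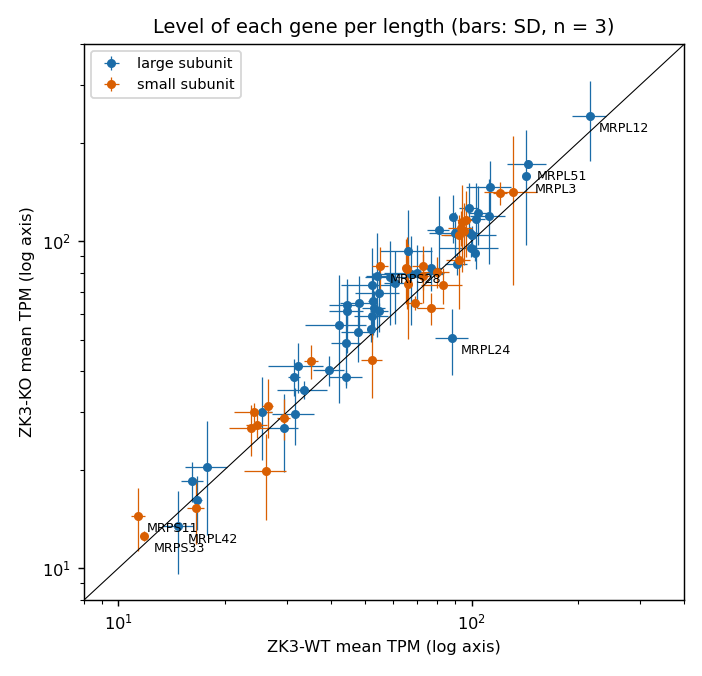
Mean TPM of the 78 genes in *ZK3*-WT (horizontal log axis) and *ZK3*-KO cells (vertical log axis), with bars for the SD of 3 libraries and a line of equal levels. Most points lie above the line over the whole range from 11.4 to 216 TPM, and others, among them *MRPL24*, *MRPS16* and *MRPS25*, lie below it.

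The summed TPM of all 78 genes was 5207, 4944 and 5155 in *ZK3*-WT libraries and 5776, 6783 and 4706 in *ZK3*-KO libraries. Replicates 1 and 2 of *ZK3*-KO cells were thus above and replicate 3 below all *ZK3*-WT libraries on this scale. The means of 5102 ± 139 and 5755 ± 1038 TPM (SD, n = 3) differed by less than the SD of the *ZK3*-KO libraries.

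Sequence at the start sites was examined in promoter windows from RefSeq, from 250 bases before to 50 after a start of each gene. Where a gene had several windows, the one with the lowest coordinate was kept, and other starts were not searched. Of the 78 genes, 70 matched a window. The ETS core CCGGAAG, read on either strand, was in 28 of them (40.0%), against 10.6% of all 27305 windows and 17.2% of the windows of 12525 tested genes. The YY1 core AAGATGGCG was in 13 (18.6%), against 1.81% and 3.39%, and the NRF1 core GCATGCGC in 6 (8.57%), against 3.21% and 4.94%. At least one of these motifs was in 38 windows (54.3%), against 14.4% and 23.4%. The median log2 fold change was 0.30 for the 38 members with a motif and 0.29 for the 32 without. Windows of the members thus held these motifs more often than the background windows, which was not tested, and the medians with and without a motif were close. A match is a description of letters and not of a bound factor.

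The windows of 4 genes are shown because they cover the range of these motifs in members described here. These are *MRPL16* and *MRPL27* with the ETS core, *MRPL52* with all 3 motifs and *MRPL24*, the member with the lowest estimate, with none in the window searched. Other members went the other way. *MRPL48* and *MRPS16*, with estimates below 0, had the ETS core, while *MRPL9* and *MRPL44*, with high estimates, had no motif. The 4 windows were located in GRCh37 by an exact match and are written 5′ to 3′ on the strand of the gene, with the motif matches in capitals. *MRPL16* lies at chr11:59578202-59578501 on the minus strand, with CTTCCGG (the ETS core read on the other strand) beginning at base -6 from the start. *MRPL27* lies at chr17:48450496-48450795 on the minus strand, with the ETS core at bases -52 and -8. *MRPL52* lies at chr14:23298846-23299145 on the plus strand, with the NRF1 core at base -175, the YY1 core at bases -98 and -64 and CTTCCGG at base -5. *MRPL24* lies at chr1:156710831-156711130 on the minus strand. This window does not reach the upstream end of the annotated gene at base 156711382, and the sequence there was not searched. The window opens with catgcgc, which is the NRF1 core short of its first base, and the base before it lies outside the window.
*MRPL16*: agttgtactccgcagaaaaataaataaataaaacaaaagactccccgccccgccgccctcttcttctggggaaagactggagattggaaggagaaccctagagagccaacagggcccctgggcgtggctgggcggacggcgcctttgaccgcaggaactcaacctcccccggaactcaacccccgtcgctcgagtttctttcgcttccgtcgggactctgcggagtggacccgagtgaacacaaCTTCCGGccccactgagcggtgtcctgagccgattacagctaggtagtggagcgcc
*MRPL27*: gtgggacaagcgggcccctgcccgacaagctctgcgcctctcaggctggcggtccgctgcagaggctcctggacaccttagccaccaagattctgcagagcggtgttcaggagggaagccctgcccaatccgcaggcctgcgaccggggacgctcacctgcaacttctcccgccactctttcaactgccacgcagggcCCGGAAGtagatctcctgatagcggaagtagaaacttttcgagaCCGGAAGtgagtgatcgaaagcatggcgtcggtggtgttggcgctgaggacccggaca
*MRPL52*: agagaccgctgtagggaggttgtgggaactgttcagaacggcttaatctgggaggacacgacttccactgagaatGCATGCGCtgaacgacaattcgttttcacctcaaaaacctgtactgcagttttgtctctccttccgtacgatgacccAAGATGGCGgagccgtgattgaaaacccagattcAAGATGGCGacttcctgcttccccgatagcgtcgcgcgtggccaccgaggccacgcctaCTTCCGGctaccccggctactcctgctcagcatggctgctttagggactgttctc
*MRPL24*: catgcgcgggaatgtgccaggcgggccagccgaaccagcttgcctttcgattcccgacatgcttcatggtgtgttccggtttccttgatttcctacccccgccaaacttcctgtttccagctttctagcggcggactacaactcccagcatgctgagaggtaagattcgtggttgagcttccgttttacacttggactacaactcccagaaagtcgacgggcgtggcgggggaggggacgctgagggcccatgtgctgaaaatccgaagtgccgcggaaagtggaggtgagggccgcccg

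Other genes of mitochondrial translation were taken from lists chosen with earlier results of these data known. Of 5 proteins of the mitochondrial ribosome with other symbols, all had estimates above 0 with a median log2 fold change of 0.45, the groups of 4 did not overlap upward (12.7% of all tested genes), and none was called by edgeR, while 3 were higher at an unadjusted p under 0.05 (8.89% of all tested genes). *GADD45GIP1*, a protein of the large subunit near the exit tunnel, had 36.5, 25.8 and 27.7 CPM in *ZK3*-WT libraries and 48.2, 57.9 and 41.1 CPM in *ZK3*-KO libraries (log2 fold change 0.71, SE 0.20, FDR = 0.126). DESeq2 called this 1 gene of the list up, against 3.87% of all tested genes. *DAP3*, a GTP-binding protein of the small subunit, had the smallest estimate (0.23, SE 0.17, FDR = 0.516).

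Of 27 factors that assemble the mitochondrial ribosome, 19 had estimates above 0 and the median log2 fold change was 0.24. The groups of 12 did not overlap upward (44.4%) and those of 2 downward (7.41%), against 12.7% and 13.8% of all tested genes. The edgeR test called 1 factor up and DESeq2 called 5 up, against 0.817% and 3.87% of all tested genes, and neither called one down. Both called *MALSU1*, which binds the large subunit during its assembly and keeps it from joining the small subunit too early. *MALSU1* (NCBI Gene 115416, GRCh37 chr7:23338358-23351348, plus strand) rose from 31.4, 27.1 and 28.9 CPM in *ZK3*-WT libraries to 57.2, 57.9 and 53.9 CPM in *ZK3*-KO libraries (0.95, SE 0.13, FDR = 0.0198). The spread within each genotype was small beside the difference between them. *YBEY*, an endoribonuclease of rRNA processing encoded on chromosome 21, had the smallest estimate (-0.36, SE 0.19, FDR = 0.363). Without *ZK3*-KO replicate 3, edgeR called 5 of the 27 factors up (18.5%), against 7.41% of all genes tested there. It called 1 down in that fit, *YBEY* (-0.55, FDR = 0.0371), against 7.73%.

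Of 16 factors of mitochondrial translation, 9 had estimates above 0 with a median log2 fold change of 0.04, near that of all tested genes. The groups of 3 did not overlap upward (18.8%) and those of 2 downward (12.5%), against 12.7% and 13.8% of all tested genes. The edgeR test called 1 up, against 0.817%, and DESeq2 called 1 up and 1 down, against 3.87% and 4.33%. *SLIRP*, a partner of LRPPRC in stabilising mitochondrial mRNA, rose from 26.4, 24.4 and 27.9 CPM to 45.2, 54.1 and 59.5 CPM (1.01, SE 0.16, FDR = 0.0263). *OXA1L*, which inserts new proteins into the inner membrane, had 121, 112 and 108 CPM in *ZK3*-WT libraries and 67.3, 71.0 and 90.6 CPM in *ZK3*-KO libraries (-0.57, SE 0.16, FDR = 0.130). Its groups did not overlap, and edgeR called it down without *ZK3*-KO replicate 3 (-0.71, FDR = 0.0099), against 7.73% of all genes tested there. *SLIRP* and *OXA1L* are on chromosome 14, whose median log2 fold change was 0.51, so they lay on either side of it. *LRPPRC* itself had an estimate of -0.04 (SE 0.16, FDR = 0.917).

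None of 9 genes of mitochondrial transcription and DNA maintenance was called by edgeR, and their median log2 fold change was 0.09. *POLG*, the polymerase of mitochondrial DNA, had 60.7, 53.0 and 62.3 CPM in *ZK3*-WT libraries and 81.5, 90.4 and 78.8 CPM in *ZK3*-KO libraries (0.51, SE 0.14, FDR = 0.120). *TFB2M*, a mitochondrial transcription factor, had the smallest estimate (-0.19, SE 0.21, FDR = 0.682). At an unadjusted p under 0.05, 3 of the 9 were higher and 0 lower, against 8.89% and 9.46% of all tested genes, and DESeq2 called 1 up, against 3.87%.

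Of 9 regulators of nuclear genes for mitochondria, 8 were tested, since *PPARGC1A* had no more than 0.0856 CPM in any library. None was called by edgeR or DESeq2, the median log2 fold change was -0.12, and 1 was higher at an unadjusted p under 0.05 (8.89% of all tested genes). *GABPA*, the ETS factor that binds promoters of many such genes, had 58.9, 68.3 and 53.5 CPM in *ZK3*-WT libraries and 47.8, 48.5 and 22.1 CPM in *ZK3*-KO libraries (-0.61, SE 0.30, FDR = 0.331). Its groups did not overlap, and the lowest value was in *ZK3*-KO replicate 3. *YY1* had the largest estimate (0.36, SE 0.13, FDR = 0.220), with 140, 154 and 158 CPM against 188, 194 and 197 CPM. *GABPA* is on chromosome 21 and *YY1* on chromosome 14, whose medians are given above.

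The transcripts that the mitochondrial ribosome uses were last. Of 15 mitochondrially encoded genes none was called by edgeR or DESeq2, 1 was higher at an unadjusted p under 0.05 (8.89% of all tested genes) and the median log2 fold change was 0.07. *ND3*, a subunit of complex I, had the largest estimate (0.45, SE 0.21, FDR = 0.322). The rRNA of the large subunit, *RNR2*, had the smallest (-0.53, SE 0.35, FDR = 0.472), with 9447, 12810 and 11110 CPM in *ZK3*-WT libraries and 5489, 5313 and 12350 CPM in *ZK3*-KO libraries. Replicates 1 and 2 of *ZK3*-KO cells were below and replicate 3 within the *ZK3*-WT range, and without replicate 3 *RNR2* was called down (-1.04, FDR = 0.00317). In that fit *COX1* (-0.56, FDR = 0.0159) and the small-subunit rRNA *RNR1* (-0.60, FDR = 0.0395) were also called down, while *ND5* was called up (0.38, FDR = 0.0440), against 7.73% and 7.41% of all genes tested there. The libraries were made from polyadenylated RNA, so counts of rRNA are a part of that RNA only.

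**Figure D5:**
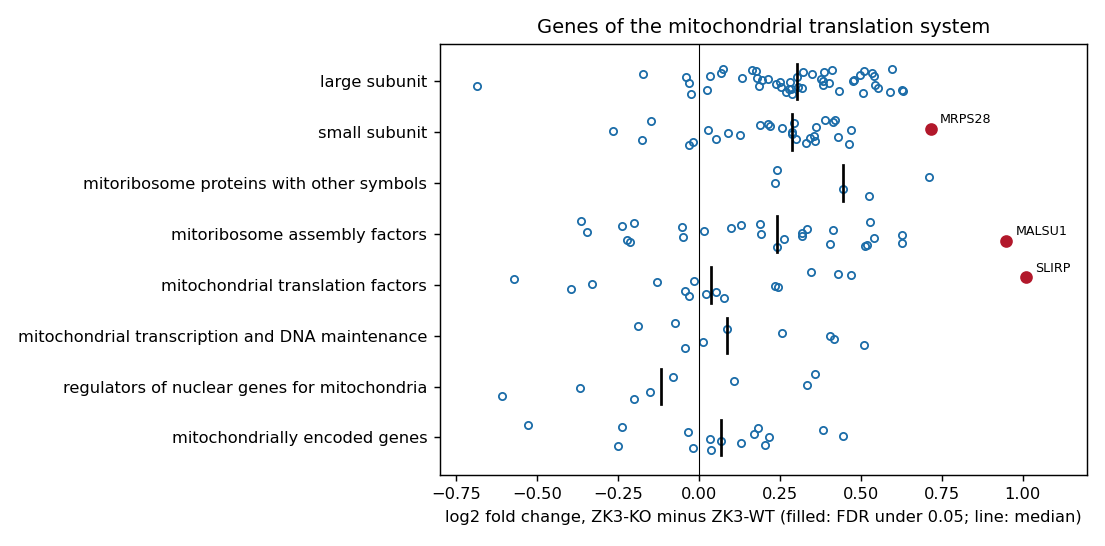
Log2 fold change (horizontal axis, *ZK3*-KO minus *ZK3*-WT, all 6 libraries) of each gene in the 2 subunits and 6 related lists, with filled red points for an FDR under 0.05 and a black line at each median. The medians of the subunits are 0.30 and 0.29, that of the regulators is -0.12, and *MRPS28*, *MALSU1* and *SLIRP* are the points past the threshold.

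Reads could be shared with copies or neighbours of some members. Of the 78 genes, 28 have annotated pseudogenes in the table, 48 in all, and for 26 of them the pseudogene reads were at most 1% of their own. The exceptions were *MRPL45*, whose pseudogenes had 7.87% of its reads, and *MRPS31*, with 54.2%. *MRPS31* (log2 fold change 0.36, SE 0.15, FDR = 0.247) and *MRPL45* (0.03, SE 0.13, FDR = 0.921, with estimates on both sides of 0 among the alternatives) are therefore uncertain. Exons of 41 members overlap those of another annotated gene on either strand.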

How the data were processed

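Per the labels and the paper's methods, the authors made stranded libraries of polyadenylated RNA, sequenced them as paired ends and quantified them against hg19 (GRCh37). The submitters' processing notes name Bowtie2 2.2.5. The methods name an Ensembl annotation, but genes in the deposited table carry NCBI Gene numbers and RefSeq accessions. The authors deposited 1 table with raw read counts per gene, FPKM values, which were not used here, and TPM values, used for levels and in 1 alternative.

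All genes were tested by edgeR 4.0.16 in R 4.3.3 (filterByExpr, TMM factors of 0.910 to 1.04, glmQLFit and glmQLFTest over all genes, genotype as the only factor, Benjamini-Hochberg adjustment, threshold 0.05). CPM are TMM-normalised. The scripts were tested on simulated data. A further 14 settings were tried, namely DESeq2 1.42.0, RLE factors (the size factors of DESeq2), library totals, upper-quartile factors, filters of at least 1 read in any or 10 reads in every library, limma 3.58.1 on log2(TPM + 1), the replicate number as a block and each library left out in turn, besides another assignment of 3 proteins to subunits.

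The deviations of libraries from their genotype means, over genes, correlated at 0.294, 0.112 and 0.449 where both genotypes shared number 1, 2 or 3, and at -0.343 to 0.209 where the numbers differed. The titles give the numbers but not what they mark. Positions came from a GRCh37 annotation by symbol, promoter windows from RefSeq (table of GRCh38.p14). The members, lists and tests were chosen with earlier results of these data known. Genes were named by rule: members past the threshold, the 5 largest and 5 smallest changes, the 5 lowest p without *ZK3*-KO replicate 3, the 5 largest changes among groups that did not overlap, the 3 highest and 3 lowest levels, members of stated function or chromosome, and the called, largest and smallest genes of each list. *MRPL11*, *MRPL27*, *MRPL35*, *MRPL38*, *MRPL49*, *MRPS9*, *MRPL45*, *MRPS31*, *LRPPRC*, *COX1*, *RNR1* and *ND5* were named after their values were seen.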

Additional observations from a re-analysis of the deposited data

How the results depend on the processing

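The number of members past an FDR of 0.05, 1 with all libraries, was 0 with library totals, upper-quartile factors, either other filter, limma on log2(TPM + 1) and the replicate block, 1 with RLE factors, 6 with DESeq2 (5 up, 1 down), and 0 to 15 when 1 library was left out, with 15 only without *ZK3*-KO replicate 3. Over all tested genes the calls up and down were 150 and 226 with all libraries, 711 and 795 with DESeq2, 1399 and 1459 without *ZK3*-KO replicate 3, and 11 to 48 and 38 to 110 without any other library. The FDR of *MRPS28* was 0.0539 to 0.258 in the 11 settings that lost it. The number of list genes past the threshold, 2 with all libraries, was 9 with DESeq2 and 0 to 16 when 1 library was left out, with 16 only without *ZK3*-KO replicate 3. *MALSU1* was past the threshold in 8 and *SLIRP* in 9 of 14 settings, with FDR of at most 0.152 and 0.170 in the others. The replicate block kept *MALSU1* (FDR = 0.0284) and *SLIRP* (FDR = 0.0290). Among members and list genes it changed no call but that of *MRPS28*, while over all tested genes it called 178 up and 283 down. Under limma on TPM the median log2 fold changes were 0.17 for all members, 0.17 for the large and 0.16 for the small subunit, and the median of all tested genes was -0.08. Relative to all tested genes, the member median was 0.20 to 0.35 in every setting. Over the 14 settings the estimates of 13 of the 78 members took both signs. Of the members named by rule these were *MRPS18A* (-0.0347 with library totals, -0.0925 with TPM, and -0.0461 to 0.138 when 1 library was left out, the lowest without *ZK3*-KO replicate 3), *MRPL42* (-0.149 to 0.105 when 1 library was left out, above 0 when either *ZK3*-WT replicate 2 or *ZK3*-KO replicate 3 was left out) and *MRPL10* (-0.0887 to 0.0251 likewise, above 0 when either *ZK3*-WT replicate 3 or *ZK3*-KO replicate 2 was left out). The cause of these changes was not tested. Every member had at least 759 reads in every library, so that detection was not limited by depth.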
